A study of Mus musculus with 3 samples.

Results

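The centromere-proximal end of the mouse X chromosome was examined in 2 libraries of RNA antisense purification (RAP), an assay in which biotinylated probes complementary to an RNA pull that RNA out of crosslinked cell lysate together with the chromatin it touches, whose DNA is then sequenced. The RNA was Xist. Female 129SvJae embryonic stem cells (ESCs) kept in 2i + LIF had been placed in medium that drives them towards epiblast-like cells (EpiLCs), for 2 days in the first library and 4 days in the second. A day 2 input DNA library is also named in the labels, and no file of it was analysed here. No genetic change or drug that sets the groups apart is labelled, and each day is 1 library, so no difference below has a replicate check and no p-value is given.

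The proximal X was taken as the windows on chromosome X with a deposited value and a midpoint below 30 Mb (mm9). A window is 100 kb long and windows follow each other every 25 kb, so neighbours share sequence. Each value is deposited on a row of 25 kb that stands for its window. Positions below are those of the rows, so they do not place a signal to within 25 kb. The rule used position and the presence of a value, not the size of the value. It left 535 windows, out of 3987 on the X and 94429 on the X and the autosomes together, the same on both days. The value of a window is the authors' enrichment ratio, taken to be pulldown over input.

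Xist is a long noncoding RNA made from the X that is to be silenced. It spreads from its own gene over that chromosome in cis and brings proteins that repress transcription, among them SPEN and the Polycomb complexes, first to some parts of the chromosome and then to the rest. In the mouse the centromere lies at one tip of the X, the Xist gene lies far from that tip, and the series title names nucleation sites seeded by Xist as its subject. The genes of the proximal end include Foxp3 and Gata1, which encode transcription factors of regulatory T cells and of blood, Porcn, needed for Wnt secretion, Cybb, Otc, Usp9x, Maoa and Timp1. They also include Ddx3x and Kdm6a, which are known to escape X inactivation. The gene table used is of GRCm38, another build than mm9, and served only for the names and order of these genes; no gene was placed in a window, and no sequence was read for one.

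Values covered only part of this end. Of the 1198 rows below 30 Mb, 535 had a value (44.7%), and 663 (55.3%) carried the authors' flag and a ratio of 0; on the X from 30 Mb on the flagged share was 36.9% of 5469 rows. Both longest flagged runs lay at the edges. The first, from 37501 to 5437500, held 216 rows, and the other, from 23637501 to 29987500, held 254 rows, or 6.35 Mb. The latter is cut by the limit of 30 Mb and goes on beyond it, so the flagged share depends on where the limit lies. Values therefore ran from 5437501 to 23637500, a span of 18.2 Mb, and "proximal X" stands for that span below. Within it 193 of 728 rows (26.5%) were flagged, the longest run being 0.75 Mb from 7912501 to 8662500. The last window inside the limit of 30 Mb was at 1.09 on day 2 and at 2.64 on day 4, and the next window with a value, at 33287501, had 4.48 and 12.58.

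The label of the pulldown was checked against the autosomes, the background of the same library. On day 2 the proximal X had a median enrichment of 7.20, with quartiles of 3.94 and 13.96, against an autosomal median of 0.38, a ratio of 18.9. On day 4 its median was 12.47, with quartiles of 6.98 and 17.76, against 0.29, a ratio of 43.0. The proximal X was thus recovered far above background on both days. The files hold no expression values, so the labelled cell type was not checked.

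The first comparison asked whether this end was covered like the rest of the X. It was covered less on both days. On day 2 the median of the proximal X was 0.632 times that of the X from 30 Mb on, 7.20 against 11.4 over 3452 windows. On day 4 the ratio was 0.715, from 12.47 and 17.44. Quartiles overlapped on both days, those of the rest being 5.64 and 18.2 on day 2 and 9.44 and 22.81 on day 4. With 13.4% of the X windows, the proximal X held 10.1% of the summed X enrichment on day 2 and 11.0% on day 4. Counting flagged rows as 0 gives it a median of 0 on both days, since most of its rows are flagged.

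The other tip of the chromosome, called the distal end below, was covered more than the proximal end. Its 713 windows, from 146787501 to 166412500, had medians of 11.23 on day 2 and 17.67 on day 4, with quartiles of 5.59 and 16.49, then 12.85 and 22.81. The inner X between 60 and 95 Mb, with 697 windows, had medians of 12.24 and 16.8. Lower recovery at the first 30 Mb was also common on autosomes, where 13 of 19 chromosomes had a lower day 2 median there than in their remainder. The ratio of those medians ran from 0.386 to 1.84 over the 19 autosomes, and 8 of them lay below the 0.632 of the X. On day 4 it ran from 0.537 to 1.61, and 10 autosomes lay below the 0.715 of the X.

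**Figure D1:**
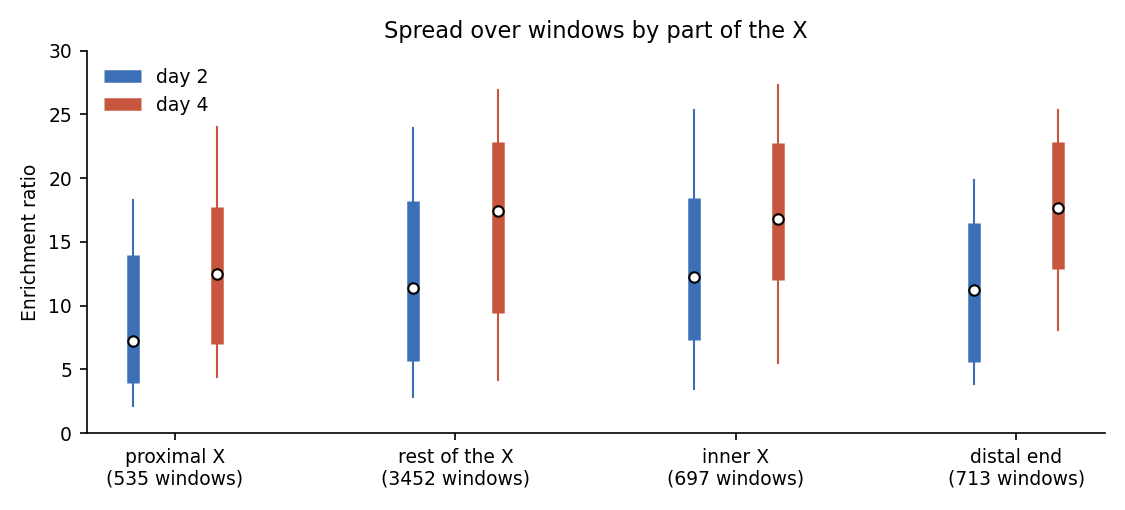
Enrichment ratio (vertical axis, linear) in 4 parts of the X on day 2 and day 4, 1 library per day; circles are medians, thick bars quartiles and thin lines the 10th to 90th percentile over windows. Rest of the X is from 30 Mb on, inner X is 60 to 95 Mb and distal end is the last stretch of the X. The proximal X has the lowest median of the 4 on both days, 7.20 and 12.47.

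The low tail of the X lay to an unequal extent in this end on day 2. At or below the 10th percentile of X windows, 2.68 on day 2, were 93 members (17.4%), against 10.1% of all X windows. On day 4 the same call, at 4.23, held for 49 members (9.16%), against 10% of the X. Against the whole X, the excess in the low tail was thus seen on day 2 and not on day 4. The whole X includes a low stretch from 110 Mb on. It holds 199 of the 242 windows from 30 Mb on with a mean level of both days below 8 times the autosomal median. The call was not repeated without that stretch, so a day 4 excess over the remaining X was not tested. At the distal end the shares were 3.23% on day 2 and 0.982% on day 4, below those of the proximal X. At or above the 90th percentile, 23.34 on day 2 and 26.73 on day 4, were 24 members (4.49%) and 37 members (6.92%), against 10% of X windows on each day.

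A few proximal windows on day 2 overlapped the upper tail of the autosomes. Of the members, 22 (4.11%) did not exceed the 99th percentile of autosomal windows, 1.58, against 0.727% of all X windows, which is 29 windows. Of these 22, 15 lay between 17 and 18 Mb, with enrichments from 1.07 to 1.55, 5 between 23 and 24 Mb and 2 between 14 and 15 Mb. All 22 were above the autosomal 90th percentile of day 2, 0.91, and the lowest was at 2.82 times the autosomal median. On day 4 the same 22 windows were at 1.83 to 3.98, and all 535 members exceeded the autosomal percentile, 1.04. The lowest X window of day 2 was among them, at 17812501 to 17837500, with 1.07 on day 2 and 1.83 on day 4. On day 4 it ranked 48 from the bottom of the X.

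Recovery rose and fell along the proximal X in broad waves. In bins of 1 Mb with at least 10 windows, of which there were 17, the highest median was 12.6 times the lowest on day 2 and 8.23 times on day 4. The bin from 7 to 8 Mb had the highest median of both days, 20.85 and 23.55. The lowest on both days was that from 17 to 18 Mb, at 1.66 and 2.86. Bins between 14 and 15 Mb (1.68 and 3.94, 10 windows) and between 22 and 23 Mb (2.37 and 5.54) were low as well, and the bin from 20 to 21 Mb was high again, at 15.4 and 17.48.

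In bins of 2.5 Mb the highest and the lowest bin were the same on both days. The bin from 5 to 7.5 Mb had the highest median on both days, 13.27 and 21.79. The bin from 22.5 to 25 Mb had the lowest, 2.65 and then 5.76, with 34 of 100 rows measured. The order between them was not wholly kept. On day 2 the bin from 7.5 Mb, at 5.73, was below those from 20 Mb (9.16) and 12.5 Mb (8.92). On day 4 it was above them, at 15.42 against 12.52 and 12.42. The highest over the lowest was 5.01 on day 2 and 3.78 on day 4. Across the 135 members taken 1 row in 4, so that windows do not overlap, Spearman's rho between the days was 0.88, a description of 2 libraries whose input may be common; the same measure over the rest of the X was 0.89.

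**Figure D2:**
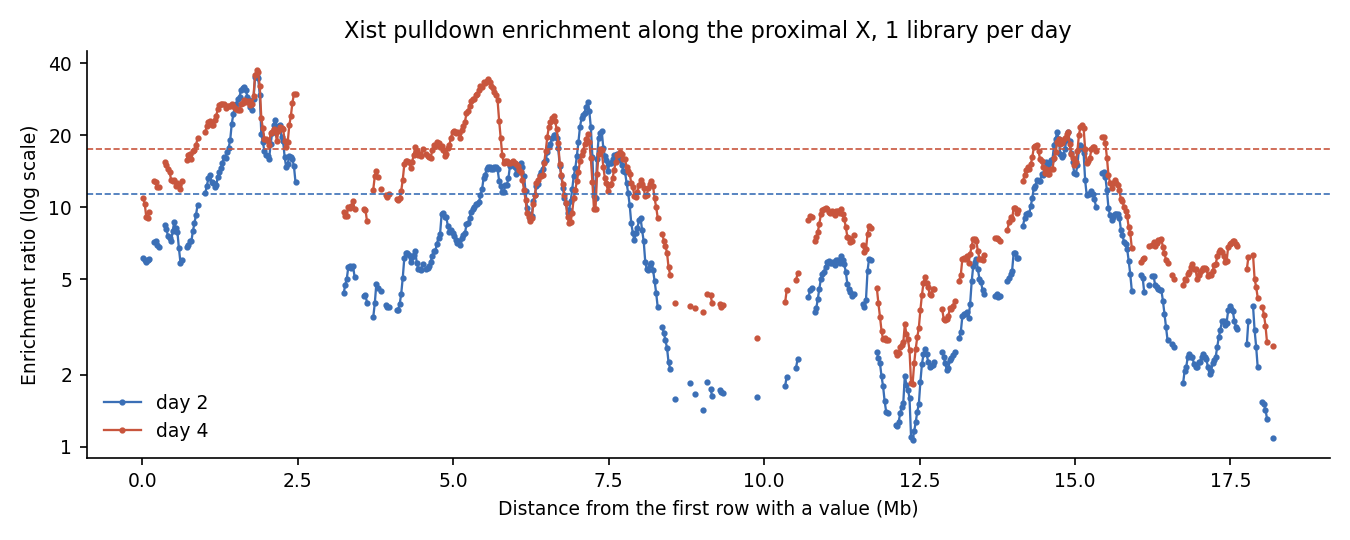
Enrichment ratio of each proximal window (vertical axis, log scale) on day 2 and day 4 against distance from the first row with a value; lines break where rows are flagged. Dashed lines are the medians of the X from 30 Mb on, 11.4 on day 2 and 17.44 on day 4. The days run close together near 1.8 and 7.2 Mb and apart near 4 to 5.7 Mb.

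The highest single window was the same on both days, and the stretch with the highest mean was not. High stretches are runs of touching rows at or above the 90th percentile of the members, 18.29 on day 2 and 24.0 on day 4. On day 2 the first of 7 lay at 6837501 to 7387500, 22 rows with values from 18.68 to 35.39, a mean of 27.82, and a mean of 28.04 on day 4. It contained the highest window of both days, at 7262501 to 7287500, with 35.39 on day 2 and 37.35 on day 4. That window ranked 57 and 48 among all 3987 X windows, whose highest values were 82.67 on day 2 and 62.9 on day 4. The highest windows of the distal end were below it, at 33.1 and 31.41. Those of the inner X were at 42.67 and 35.88, above it on day 2 and below it on day 4.

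The next stretches differed between the days. On day 2 they were 12437501 to 12662500 (9 rows, 18.69 to 27.62, mean 23.72) and 7487501 to 7712500 (mean 20.84). On day 4 the values of the former were 14.05 to 20.22, with a mean of 17.31, so all its rows fell below the day 4 threshold. The day 4 stretch with the highest mean was 10637501 to 11162500, 21 rows between 24.64 and 34.26 with a mean of 30.17. On day 2 those rows had been at 8.48 to 14.78, with a mean of 12.06, all below the day 2 threshold. The remaining day 4 stretches were 6612501 to 7337500, with a mean of 27.87 against 24.47 on day 2, and 7812501 to 7912500, with 27.67 against 14.89.

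Low stretches, runs at or below the members' 10th percentile, were short and broken by flagged rows. There were 21 on day 2, below 2.17, and 16 on day 4, below 4.41. The longest among those with the lowest means was 17537501 to 17962500 on day 2, 17 rows between 1.07 and 1.98 with a mean of 1.45, and 2.66 on day 4. On day 4 it reached from 17537501 to 17987500 with a mean of 2.75. The others were single rows at 23612501 (1.09 and 2.64), 14437501 (1.43 and 3.65) and, on day 4, 15312501 (1.61 and 2.84). Low levels and flagged rows went together: members with a flagged row within 50 kb (130 windows) had medians of 4.10 on day 2 and 7.32 on day 4, against 9.38 and 14.37 for the other 405. What the flag has to do with these levels was not tested.

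The second comparison set day 4 against day 2. For this, ratios were expressed relative to the median of the autosomes in the same library, and a fold is on that scale unless it is called unscaled. All but 83 of the 3987 X windows were higher on day 4. Likewise, the proximal X was higher in all but 9 of its 535 windows. Its log2 ratio had a median of 1.1 and quartiles of 0.64 and 1.48, the median being a fold of 2.15; without scaling the median fold was 1.64. Over the rest of the X the median log2 ratio was 0.85, with quartiles of 0.50 and 1.21, and the difference of the medians was 0.26, which no scaling of the libraries can change.

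More than 2-fold higher on day 4 were 320 members (59.8%). The share was 41.3% over all X windows and 3.07% over autosomal windows. It was 38.4% over the X from 30 Mb on and 56.1% at the distal end, where the median log2 ratio was 1.08. Both tips of the X thus had similar medians, above that of the inner X between 60 and 95 Mb (0.79). The share depends on the scale. Unscaled it was 29.3%, and it was 33.1% with a pseudocount of 0.5 on each ratio and each autosomal median. The pseudocount thus also changes the scaling. Shares of the other parts were not computed in these settings, so the 41.3% over all X windows is no background for them.

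The first 30 Mb of the autosomes were read in the same way. Their median log2 ratios ran from -0.20 to 0.39 over the 19 autosomes, so that of the proximal X was above all of them. The first 30 Mb minus the remainder ran from -0.14 to 0.43; it was above the 0.26 of the X on 1 autosome, chromosome 9. A difference of that size between an end and its chromosome was therefore not limited to the X in these libraries.

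The gain was not even along the proximal X, and it was described in segments. Segments were defined, after the values were seen, as at least 20 successive windows on one side of the members' median log2 ratio, with flagged rows bridged. There were 8, of which 4 lay above the median and 4 below, with 415 of the 535 windows. Scaling does not alter them, since it moves every window by the same amount. Because they were picked by the log2 ratio, their ratios are a description. Neighbouring windows share sequence, so runs on one side of the median are partly built in. The rest of the X was not divided in this way. Over all 535 members, 77 (14.4%) had a lower deposited ratio on day 4 than on day 2, against 17.1% of X windows. All 77 lay in segments below the median. That they lay in no segment above it was fixed in advance, since such windows are below the members' median log2 ratio.

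The segment with the strongest gain ran from 7837501 to 11187500, with 88 of 134 rows measured. Its median enrichment was 6.77 on day 2 (range 3.47 to 15.84) and 17.63 on day 4 (range 8.74 to 34.26). The log2 ratio had a median of 1.8, which is 3.49-fold, or 2.66-fold unscaled, with single windows between 1.17 and 2.16. The window at 2.16, from 9137501 to 9162500, went from 3.47 to 11.84 and ranked 15 among all X windows for its log2 ratio. The runs with the highest mean log2 ratio all lay in this segment, at 9137501 to 9237500 (2.05), 9787501 to 9962500 (1.92) and 10412501 to 10937500 (1.89).

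Its neighbour, from 11187501 to 13487500, had values in all 92 rows and gained the least. The median was 14.5 on day 2 (range 7.27 to 27.62) and 14.09 on day 4 (range 8.61 to 23.98). Its log2 ratio had a median of 0.38, which is 1.30-fold, or 0.991-fold unscaled. In 49 of its 92 windows the deposited ratio was lower on day 4. The run with the lowest mean log2 ratio of the proximal X lay here, from 12287501 to 13062500, with means of 17.7 on day 2 and 14.07 on day 4 and a mean log2 ratio of 0.07. The runs next to it in rank were at 6937501 to 7112500 (0.22) and at 11512501 to 11612500 (0.23). The order of both segments turned between the days: the second had the higher median on day 2, 14.5 against 6.77, and the lower on day 4, 14.09 against 17.63.

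The other 6 segments lay on either side of this pair. Above the median were 6012501 to 6762500 (median 11.84 on day 2, 21.22 on day 4, log2 ratio 1.32), 13487501 to 16462500 (3.65, 7.51 and 1.55) and 21837501 to 23237500 (2.53, 5.68 and 1.56). Below it were 6762501 to 7837500 (22.1, 25.53 and 0.47), 19437501 to 20737500 (13.83, 16.06 and 0.62) and 20862501 to 21837500 (7.0, 9.66 and 0.86). The segment from 6762501 holds the highest window of both days and the day 2 stretch with the highest mean, while the day 4 stretch with the highest mean lies in the segment of strongest gain. Gains above the median occurred both at low levels, as from 21837501 on, and at levels near those of the rest of the X, as from 6012501 on.

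**Figure D3:**
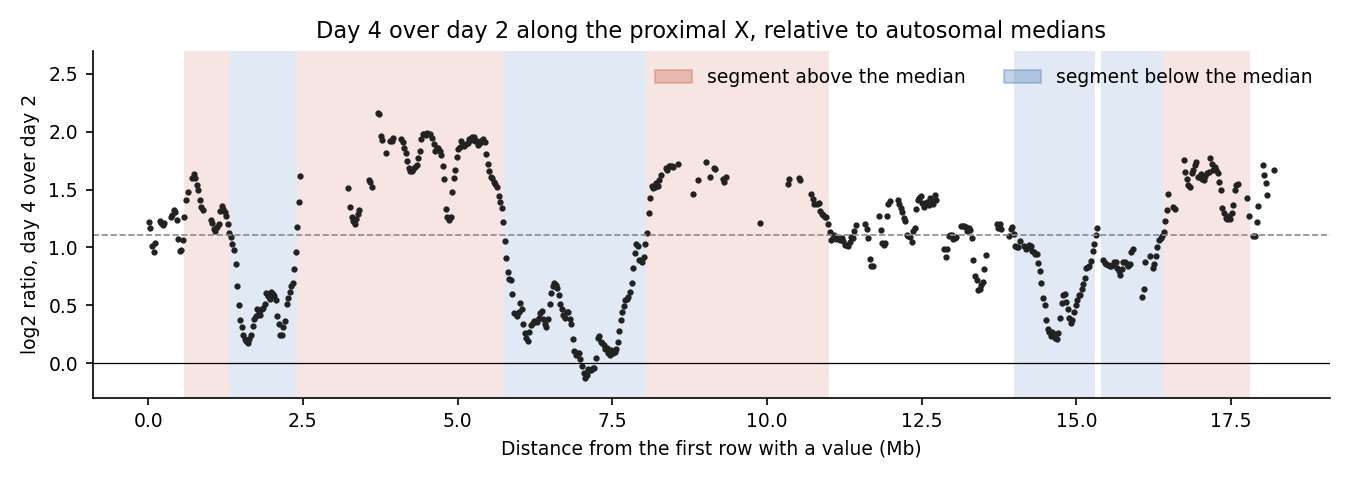
The log2 ratio of day 4 over day 2, relative to autosomal medians, of each proximal window (vertical axis) against distance from the first row with a value. The dashed line is the median of the members, 1.1; shaded spans are the 8 segments. The segment from 2.4 to 5.75 Mb has a median of 1.8 and its right neighbour, to 8.05 Mb, one of 0.38.

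The border between the segments of strongest and least gain was examined in steps of 100 kb, 4 rows each. From 200 to 100 kb left of the border at 11187500 the mean enrichment was 14.58 on day 2 and 32.82 on day 4. In the last 100 kb before it the means were 14.17 and 27.7. To the right, the means were 11.94 and 16.71 in the first 100 kb, 13.93 and 15.43 in the next, and 14.51 and 15.19 between 200 and 300 kb. Over the 5 distances up to 500 kb, the left over the right ran from 0.726 (300 to 400 kb) to 1.19 (next to the border) on day 2 and from 1.66 (next to the border) to 2.91 (400 to 500 kb) on day 4. The border was picked by the log2 ratio, so that the left gained more than the right was fixed by that choice. The mean log2 ratio went from 1.92 between 400 and 300 kb left to 0.46 between 200 and 300 kb right.

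Each row stands for a 100 kb window, so a sharp edge would be spread over about that length. On day 4 the enrichment fell from 34.26 in the row at 10987501 to 15.25 in the row at 11237501. The part of this fall from 27.9 to 15.25 took 4 steps of 25 kb, or 100 kb. The log2 ratio fell over a longer distance than 1 window, from 1.91 in the row at 10862501 to 0.43 in the row at 11337501. Changes of log2 ratio of 1 or more over 300 kb were rare, in 9 of 433 pairs of members (2.08%) and 44 of 3167 pairs on the X (1.39%). They were not limited to this border. Counted from the first row with a value, the log2 ratio fell from 1.3103 at 1.2375 Mb to 0.2412 at 1.5375 Mb. It rose from 0.2437 at 2.1625 Mb to 1.6135 at 2.4625 Mb. Over 200 kb there was 1 such pair of 442 members (0.226%), against 6 of 3227 on the X (0.186%). Over 100 kb there were 0 of 437 and 0 of 3294.

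**Figure D4:**
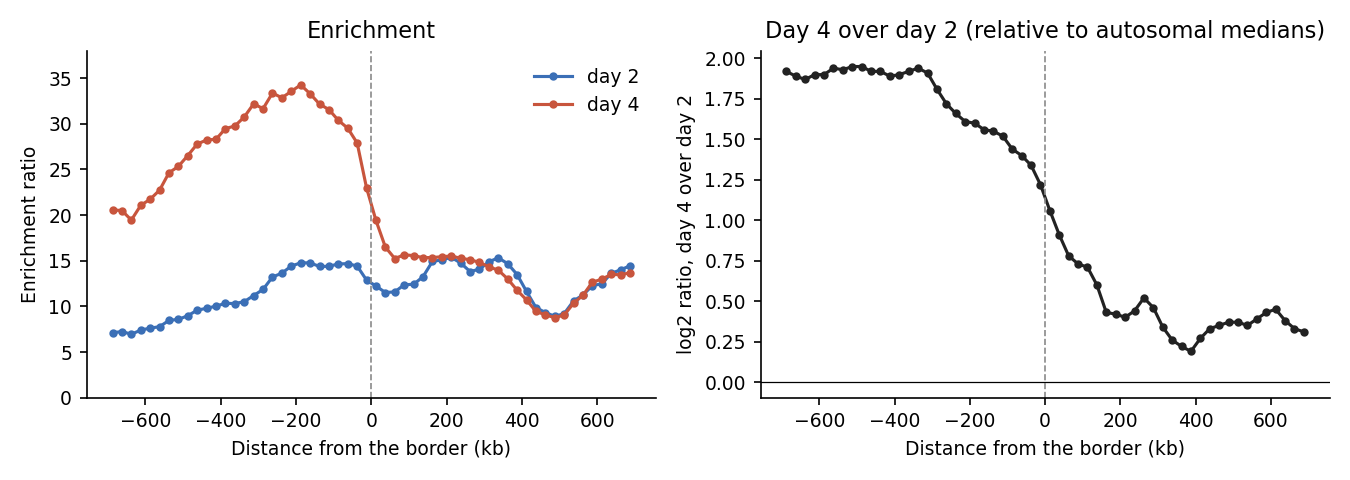
Left, enrichment ratio on day 2 and day 4; right, the log2 ratio of the days relative to autosomal medians; both against distance in kb from the border between the segments of strongest and least gain. On day 4 the mean is 27.7 in the last 100 kb before the border and 16.71 in the first 100 kb after it, against 14.17 and 11.94 on day 2.

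The gain was then read at matched levels, because the log2 ratio varied with level. The rho of the log2 ratio with the mean level of both days was -0.49 over 135 members and -0.31 over 846 windows of the rest, each 1 row in 4; values of the same libraries enter both measures. Windows were grouped by the geometric mean of both days relative to the autosomal medians. Below 8 times the autosomal median, 35 members had a median log2 ratio of 1.39 (quartiles 1.22 and 1.57) and 242 windows of the rest of the X 0.44 (quartiles 0.26 and 0.71). The quartiles did not overlap, but the groups were not equally low on day 2, with median enrichments of 1.51 and 2.08. Of the 35 members, 22 were on day 2 within the autosomal range described above, so their folds are over a value near background, against 7 of the 242. The other 13 members had a median of 1.21 (quartiles 1.09 and 1.58) and a median day 2 enrichment of 1.72. Of the 242 windows, 199 lie in a low stretch, the 15 Mb from 110 Mb on; the other 43 had a median of 0.82, quartiles of 0.70 and 0.99, and a median day 2 enrichment of 2.15.

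The gap was smaller at the next level and was not seen from 16 times the autosomal median on. Between 8 and 16 times the autosomal median the medians were 1.38 over 97 members and 1.12 over 351 windows (1.21 without the low stretch). Between 16 and 32 times they were 1.15 and 1.17. Between 32 and 64 times the proximal X was lower, 0.73 (quartiles 0.42 and 1.26) against 0.88 (quartiles 0.58 and 1.19), and above 64 times it had 0.41 against 0.51. Quartiles overlapped in all 4 of these groups.

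**Figure D5:**
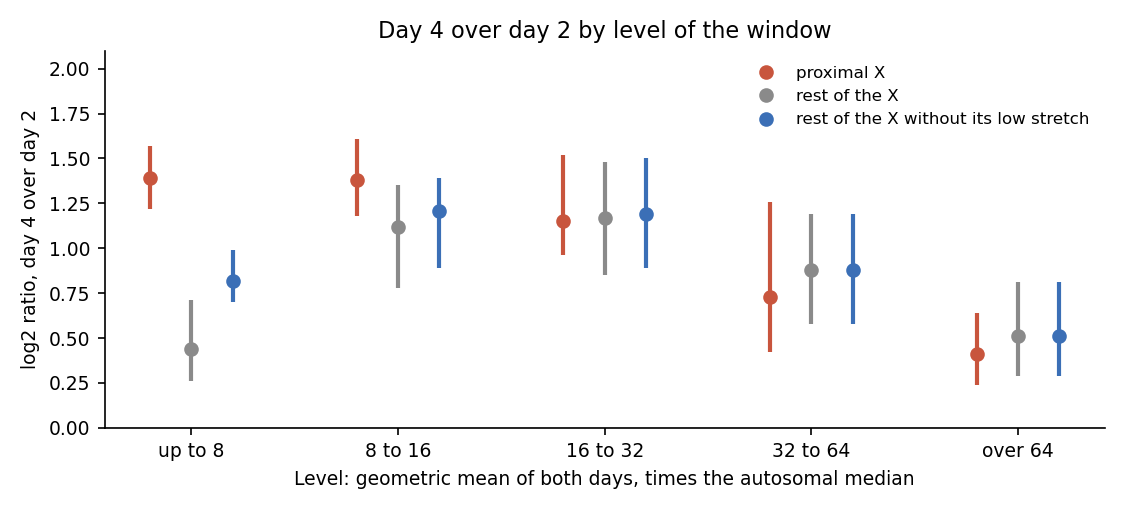
Median log2 ratio of day 4 over day 2 (points) with quartiles over windows (lines), relative to autosomal medians, by the level of the window; low stretch means the 15 Mb from 110 Mb on. Below 8 times the autosomal median the proximal X is at 1.39 and the rest of the X at 0.44, or 0.82 without its low stretch, with 22 of the 35 proximal windows near background on day 2; from 8 times on the quartiles overlap.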

How the data were processed

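RAP libraries of Xist from day 2 and day 4 were analysed, 1 each. Per the submitters' processing notes, the build was mm9 and the tools included Bowtie2 2.2.9 and Trim Galore 0.4.1, with SAMtools 1.2, bedtools and Picard; their settings, the input behind each day and any scaling between libraries were not given in the sources used here. In both files the authors deposited 1 enrichment ratio per row, with 2 decimals, and a flag that marks rows with a ratio of 0. Flagged rows were left out. The files hold no read counts, so depth is unknown, no counting interval is given, and noise in low windows cannot be weighed. The log2 ratio of the days was computed without a pseudocount, after division of the deposited ratios by each library's autosomal median. Noise of an input used for both days would enter both profiles. Members, bins and regions were chosen with earlier results of these data known. Regions named were the highest and lowest bins and windows, the 3 highest and lowest stretches per day, the 3 runs of at least 4 rows with the highest and lowest log2 ratio, and the 3 longest flagged runs. Segments, the border, level groups and the low stretch of 15 Mb from 110 Mb on were added after the values were seen. Python 3.11.15, pandas 2.3.3 and NumPy 2.4.6 were used. The functions were tested on simulated data.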

Additional observations from a re-analysis of the deposited data

How the results depend on the processing

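No paired analysis was possible because there is 1 library per day, and so none could be left out. The 9 results had 160 alternative values. Of these, 147 lay within 1 SD over the 2.5 Mb bins, for shares within the exact binomial interval and for rho within 0.1. That SD was wide. It was 0.343 and 0.326 for the ratios to the rest of the X, 0.632 on day 2 and 0.715 on day 4. For the difference in log2 ratio, 0.26, it was 0.291, so a difference of 0 would have lain within it. Of the 160 values 0 changed direction, which levels and shares could not do by this measure. With flagged rows as 0, the median level and its ratio to the rest of the X were 0 on both days, because most rows then are 0. The median log2 ratio of the days, 1.1, was 0.71 without scaling and 0.80 with a pseudocount of 0.5. The pseudocount was added to the deposited ratios and to the autosomal medians, so it also changes the scaling. Scaled to the median of the X from 30 Mb on, the log2 ratio was 0.10, which removes the gain of that part by construction. The share past 2-fold, 59.8%, was 29.3%, 33.1% and 0.374% in these settings, in that order, and 49.9% without windows near flagged rows. The cause of the last was not tested. No share over all X windows or the rest of the X was computed in these settings. The 41.3% and 38.4% of the main scaling are thus no background for them. The share of rows with a value was 52.5% up to 20 Mb and 53.6% up to 25 Mb. For all other results a limit of 25 Mb takes the same windows as 30 Mb, so equal values were fixed in advance there. The difference in log2 ratio from the rest of the X stayed between 0.20 and 0.32, also with the low stretch from 110 Mb on left out. Leaving out each 2.5 Mb bin in turn, added after the data were seen, gave ratios to the rest of the X between 0.518 and 0.702 on day 2 and between 0.612 and 0.76 on day 4, the lowest without the bin from 10 Mb.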

Other observations

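Windows of the proximal X resembled their near neighbours. Spearman's rho between members 200 kb apart was 0.89 on day 2 and 0.85 on day 4 (442 pairs). It was 0.77 and 0.76 at 500 kb (421 pairs) and 0.41 and 0.46 at 1 Mb (389 pairs). The log2 ratio of the days lost its likeness sooner, with 0.83 at 200 kb, 0.57 at 500 kb and 0.17 at 1 Mb, and was at -0.66 between members 2 Mb apart (326 pairs). Pairs share windows with each other, so these values describe the profile and carry no p-value.

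Flagged rows were thicker where recovery was low. Over members taken 1 row in 4, the rho of the number of flagged rows within 500 kb with enrichment was -0.68 on day 2 and -0.62 on day 4 (135 windows), against -0.46 and -0.50 over the rest of the X (846 windows). With the log2 ratio of the days it was 0.40 in the proximal X and 0.05 in the rest of the X. Members with a flagged row within 50 kb had a median log2 ratio of 1.37, and the others 1.01. The part of the flag in these values was not tested.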
